A study of Mus musculus with 6 samples.

Results

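A set of 10 genes that act at the T cell receptor itself were followed through T and NK cells from mouse pancreatic tumors. They were Cd3d, Cd3e, Cd3g, Cd247, Lat, Lck, Zap70, Themis, Cd5 and Cd6, which is 10 of the 34187 genes counted. The list was chosen by their levels in these same cells, because several of its genes were lower after IL10/2-Trikine than in the other groups. Their differences under IL10/2-Trikine are therefore given as a description, and where edgeR's threshold is mentioned for them it only describes where a value lay, whereas mono-IL10 against PBS and other genes of the pathway were tested.

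The cells were CD45+ cells collected with beads from subcutaneous 6694c2vTRP1 tumors, a pancreatic cancer line, grown in C57BL/6 mice and profiled by droplet-based 5' single-cell RNA sequencing. Mice received PBS, 26 µg mono-IL10, a monomeric form of the cytokine IL-10, or 30.6 µg IL10/2-Trikine, an IL-10 molecule built to bind the beta chain of the IL-2 receptor as well. All groups were given 2 intraperitoneal doses from day 8 and tumors were taken on day 14. Each group held 5 mice, which were marked with hashtag antibodies and pooled into 1 library per treatment, so treatment and library cannot be told apart in any comparison.

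The T cell receptor binds its antigen through variable chains that cannot signal by themselves. The CD3 gamma, delta and epsilon chains, encoded by Cd3g, Cd3d and Cd3e, and the zeta chain, encoded by Cd247, carry the tyrosine motifs that pass the signal on. Lck phosphorylates those motifs, Zap70 docks on them and then phosphorylates the adaptor Lat, and Lat gathers the enzymes that raise calcium and activate Ras. Themis adjusts the strength of this step in developing and mature T cells, and Cd5 and Cd6 are related surface receptors that restrain it. NK cells carry no CD3 complex at the surface, but use the zeta chain, Lck and Zap70 behind some of their own receptors.

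The 3 CD3 genes lie next to each other on chromosome 9, and their levels were lower together in the IL10/2-Trikine mice, whereas Cd247 and Lck were also measured in NK cells. The 250 bases before their start sites are therefore shown, from RefSeq on build GRCm38.p6, with the Lck start site farther upstream of the 2 in RefSeq. In the lines that follow, 5' to 3' on the strand of the gene, capitals mark the ETS core motif (GGAAGT or ACTTCC).
Cd3d, chr9:44981536-44981785 (+ strand):
Cd3d: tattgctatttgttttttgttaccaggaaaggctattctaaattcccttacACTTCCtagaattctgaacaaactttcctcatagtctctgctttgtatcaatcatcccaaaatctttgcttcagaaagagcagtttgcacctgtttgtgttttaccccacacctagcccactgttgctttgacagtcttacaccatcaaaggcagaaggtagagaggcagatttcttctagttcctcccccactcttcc
Cd3g, chr9:44980432-44980681 (- strand):
Cd3g: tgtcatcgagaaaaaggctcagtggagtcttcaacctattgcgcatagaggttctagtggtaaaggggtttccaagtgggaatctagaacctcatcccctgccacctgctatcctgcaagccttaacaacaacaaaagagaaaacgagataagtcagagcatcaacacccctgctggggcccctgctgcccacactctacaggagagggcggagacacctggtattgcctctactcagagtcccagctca
Cd3e, chr9:45009612-45009861 (- strand):
Cd3e: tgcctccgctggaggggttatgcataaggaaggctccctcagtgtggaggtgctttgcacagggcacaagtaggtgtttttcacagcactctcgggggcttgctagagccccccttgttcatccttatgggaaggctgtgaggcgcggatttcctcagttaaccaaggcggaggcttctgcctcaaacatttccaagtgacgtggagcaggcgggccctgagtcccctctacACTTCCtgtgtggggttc
Cd247, chr1:165788431-165788680 (+ strand):
Cd247: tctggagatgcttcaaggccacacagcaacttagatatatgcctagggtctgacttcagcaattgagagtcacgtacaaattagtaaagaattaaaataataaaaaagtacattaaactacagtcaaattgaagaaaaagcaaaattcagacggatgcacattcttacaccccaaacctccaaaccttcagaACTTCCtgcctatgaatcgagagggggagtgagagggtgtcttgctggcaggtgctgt
Lck, chr4:129573642-129573891 (- strand):
Lck: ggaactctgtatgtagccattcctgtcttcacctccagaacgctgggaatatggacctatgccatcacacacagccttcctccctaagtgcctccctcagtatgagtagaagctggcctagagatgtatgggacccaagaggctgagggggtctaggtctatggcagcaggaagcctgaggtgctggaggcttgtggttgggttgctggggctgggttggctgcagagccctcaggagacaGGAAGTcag

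The start sites of Cd3d and Cd3g were 1355 bases apart and face away from each other on opposite strands, and that of Cd3e was 27825 bases from that of Cd3d. The ETS core began 199 bases before the start of Cd3d, 18 before that of Cd3e, 58 before that of Cd247 and 9 before that of Lck, and these 6 letters were not in the window of Cd3g. RefSeq entries matched 9 members and gave 13 start sites, without Cd6. Over windows of 300 bases, from 250 before to 50 after the start, 7 of the 13 held the ETS core on either strand, against 23.8% of all 32851 RefSeq promoter windows of the same length. A RUNX core (TGTGGT or ACCACA) was in 3 of the 13 (16.8% of all windows), and TATAAA or TTTATA in 0 (13.6% of all windows). These letters are a description of the windows and were not tied to any level below.

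The libraries held 30528 to 55504 barcodes, of which the authors had annotated 516 PBS, 843 mono-IL10 and 725 IL10/2-Trikine cells as T or NK cells in 12 clusters, with a median of 2780, 3959 and 2635 UMIs (unique RNA molecules counted) per cell. A mouse was known for 348, 635 and 400 of these cells, and the summed depth of a mouse ranged from 124258 to 995020 UMIs. Among all barcodes, 408 to 700 were shared between pairs of libraries, but 0 among the annotated cells. T cells are here the 9 clusters with a T cell name, NK cells are the clusters NK and Cycling_NK, and the mixed cluster Th17/ILCs was kept apart. Macrophage markers summed to 155 to 351 CPM (UMIs per 1000000 UMIs of the summed cells) in the T cells of the PBS mice, 118 to 235 in mono-IL10 and 139 to 395 in IL10/2-Trikine. The part of macrophage RNA in the results was not tested.

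Names and markers did not match everywhere. A Cycling_T cell was called NK-like here when it held more UMIs of the NK genes Ncr1, Klrb1c, Klre1, Tyrobp and Fcer1g than of the T cell receptor constant chains Trac, Trbc1, Trbc2 and Trdc, which uses no member. By that count the NK-like cells were 18 of 55 Cycling_T cells of PBS (32.7%), 24 of 120 of mono-IL10 (20%) and 132 of 174 of IL10/2-Trikine (75.9%). In the gdT/NKT cluster, whose name holds gamma-delta and NKT cells, the NK genes outnumbered the constant chains in 61 of 78, 54 of 75 and 48 of 53 cells. Summed over the T cells of a mouse, the 7 NK markers reached 1301 to 2143 CPM in PBS, 1087 to 1827 after mono-IL10 and 2630 to 3438 after IL10/2-Trikine, so every IL10/2-Trikine mouse was above every other mouse. The calls in T cells are therefore given with and without the NK-like Cycling_T cells. The naive_T cluster (25 cells, 19 of them from mono-IL10) had 0 UMIs of Ccr7, a marker of naive T cells, in 52131 UMIs, and it is called here by its name only.

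**Figure D1:**
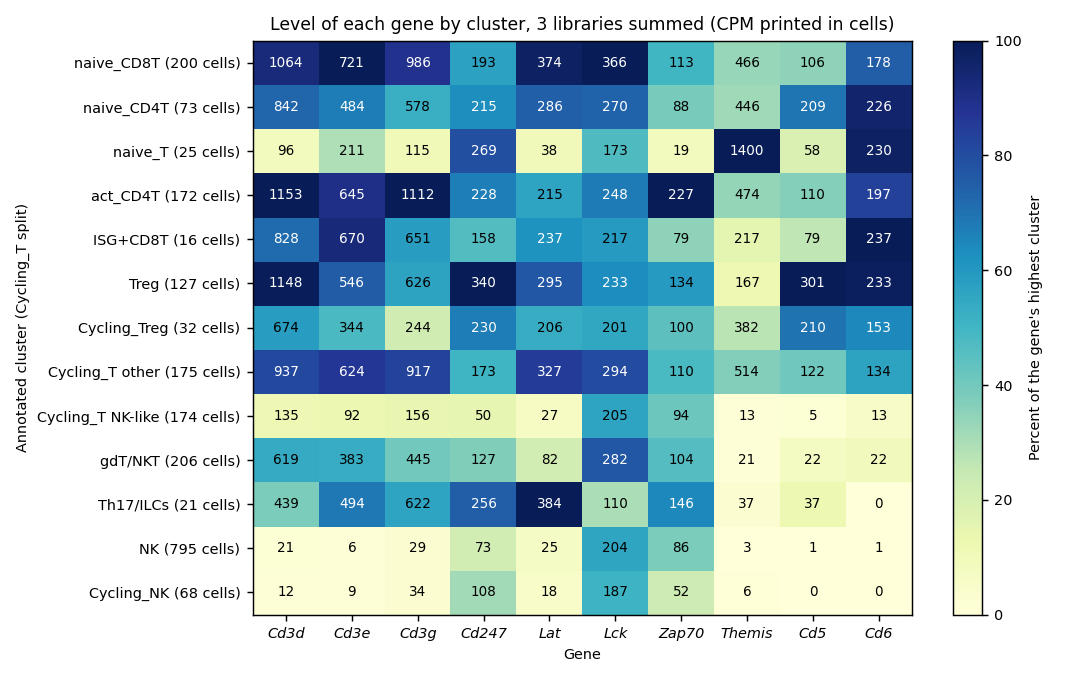
Level of each of the 10 genes in each annotated cluster, in CPM, with the cells of the 3 libraries summed. Cd3d reached 1153 CPM in act_CD4T and 21.3 CPM in NK, whereas Lck was 366 CPM in naive_CD8T and 204 CPM in NK.

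Across clusters, the CD3 genes, Lat, Themis, Cd5 and Cd6 were features of T clusters, whereas Lck, Zap70 and Cd247 reached into NK cells. Because the clusters were made from the same cells and genes, these levels are a description. Counts were made from the 5' end of transcripts and are compared for 1 gene at a time. Cd3d was 1153 CPM in act_CD4T, 1148 in Treg, 1064 in naive_CD8T and 619 in gdT/NKT, against 21.3 in NK (95% Poisson interval 16.4 to 27.2, counting error only). The first 3 of these differed by less than their spread between libraries, and gdT/NKT and NK stood below them.

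The zeta chain gene Cd247 had its highest value in Treg, at 340 CPM (interval 280.5 to 408.5), and was 72.6 CPM in NK (63.3 to 82.9). Intervals of some smaller clusters overlapped that of Treg, among them naive_T, at 269 CPM (147 to 451), and Th17/ILCs, at 256 (140 to 430). The restraining receptor Cd5 also had its highest value in Treg, at 301 CPM (245 to 366), and was 0.666 CPM in NK (0.0807 to 2.41), where 2 UMIs were found in 795 cells. For Cd5, the intervals of Cycling_Treg, at 210 CPM (153 to 282), and naive_CD4T, at 209 (148 to 287), overlapped that of Treg. Lck was 204 CPM in NK (188 to 221) and 233 in Treg (184 to 290), 2 values whose intervals overlapped. The interval of act_CD4T, at 248 CPM (212.5 to 287), also overlapped that of NK. Those of naive_CD8T, at 366 (322 to 415), and gdT/NKT, at 282 (242 to 326), lay above it.

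The gdT/NKT cluster held the CD3 genes but little of the modulators, with 21 CPM of Themis, 22 of Cd5 and 22 of Cd6. The Th17/ILCs cluster held Lat at 384 CPM and 0 UMIs of Cd6. In naive_T the order was unlike that of the other T clusters, with 1400 CPM of Themis (1098 to 1761, 73 UMIs) beside 95.9 CPM of Cd3d (31.1 to 224, 5 UMIs). Within Cycling_T, the NK-like cells had 135 CPM of Cd3d and the other cells 937.

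Likeness over the 12 clusters was measured as Pearson's r of log2(CPM + 1) with the mean of Cd3d, Cd3e and Cd3g, among 7262 genes with at least 100 UMIs. The genes outside the list with the highest r were Trbc2 (0.95) and Trac (0.91), the constant chains of the receptor, then E330020D12Rik (0.89), Cited2 (0.83) and Trp53inp1 (0.83). Among the members, Lat had an r of 0.92, Cd5 0.90, Cd6 0.69, Themis 0.69, Cd247 0.64, Zap70 0.51 and Lck 0.33. The clusters share libraries and differ in depth, so these values rank the genes and carry no test.

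Detection per cell was set against background, since free RNA gives UMIs in cells that do not express a gene. Each cell was thinned to 1000 UMIs, which left out 0 T cells and 0 NK cells, with median depths of 3088 UMIs in T cells, 3076 in NK cells and 4466 to 8379 in macrophage-marked barcodes before thinning. Cd3d was then detected in 49.4% of T cells, 1.74% of NK cells and 3.25% to 5.15% of macrophage-marked barcodes, which should lack it. Doublets with T cells were not removed from these barcodes, so this background can be too high. A share below it therefore does not decide whether NK cells held a little Cd3d. Without thinning the Cd3d shares were 75.3% of T cells, 4.17% of NK cells and 16.6% to 22.4% of macrophage-marked barcodes. Lck was detected in 24.1% of T cells, 21.2% of NK cells and 2.15% to 3.96% of the macrophage-marked barcodes. Zap70 was found in 11.9% of T cells and 7.18% of NK cells, and Cd247 in 16.2% and 8.81%, against at most 1.30% and 2.13% of macrophage-marked barcodes. Lck, Zap70 and Cd247 were thus above this background in NK cells. Themis and Cd5, each found in 1 of 863 NK cells (0.116%), were not above it, which under the same limit decides nothing about low levels.

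**Figure D2:**
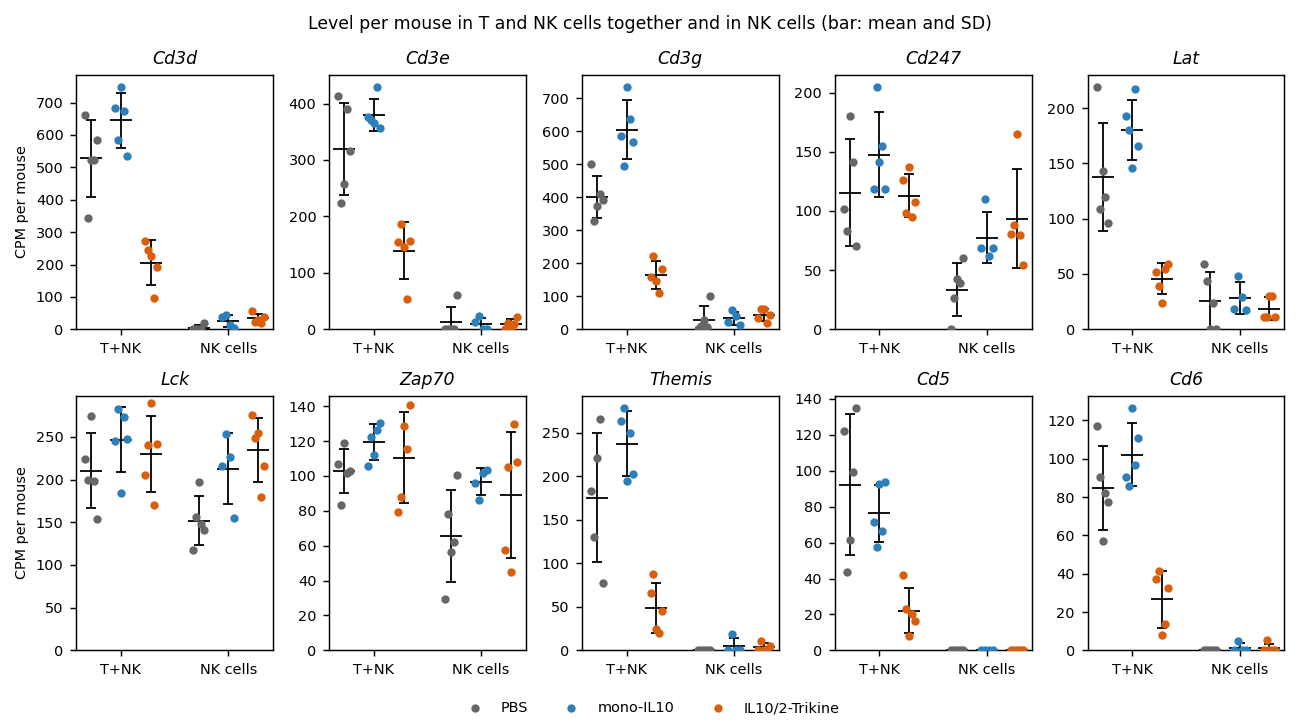
Level of each gene in the summed T and NK cells of each mouse, in CPM, by treatment, where each point is 1 mouse and the bar is the mean with its SD (n = 5 per group). For Cd3d, Cd3e, Cd3g, Lat and Themis the 5 IL10/2-Trikine mice lay below the mono-IL10 mice, whereas Lck and Zap70 overlapped in all groups.

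The receptor chains came first. In T and NK cells together, Cd3d was 663, 344, 524, 522 and 586 CPM in the 5 PBS mice (528 ± 118, SD, n = 5), 684, 585, 749, 675 and 536 in the mono-IL10 mice (646 ± 84.9) and 271, 246, 225, 95.3 and 193 in the IL10/2-Trikine mice (206 ± 68.3). Every IL10/2-Trikine mouse was below every other mouse. Cd3g was 500, 329, 373, 410 and 393 CPM in PBS (401 ± 63.0), 586, 494, 734, 638 and 567 after mono-IL10 (604 ± 89.4) and 159, 223, 145, 109 and 183 after IL10/2-Trikine (164 ± 42.5). Here 4 of the 5 mono-IL10 mice were above every PBS mouse, and the lowest of them was 494 against a highest PBS value of 500. Cd3e was 320 ± 81.6 CPM in PBS, with mice from 224 to 413, 380 ± 28.7 after mono-IL10 and 139 ± 49.96 after IL10/2-Trikine, with mice from 54.5 to 186. The zeta chain did not follow the CD3 genes: Cd247 was 116 ± 44.9, 148 ± 35.6 and 113 ± 18.0 CPM in PBS, mono-IL10 and IL10/2-Trikine, with overlapping groups.

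In the summed T and NK cells, the kinases kept to 1 range. Lck was 224, 199, 274, 199 and 154 CPM in PBS (210 ± 43.8), 245, 282, 185, 273 and 247 after mono-IL10 (247 ± 38.1) and 206, 241, 290, 170 and 242 after IL10/2-Trikine (230 ± 44.7). Zap70 was 102.8 ± 12.8, 119 ± 10.4 and 110.5 ± 26.1 CPM. The mice of the 3 groups overlapped for both genes.

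The adaptor and the modulators were low in IL10/2-Trikine. Lat was 219, 109, 143, 119 and 96.5 CPM in PBS (137 ± 48.9), 193, 180.5, 146, 217 and 166 after mono-IL10 (180 ± 26.9) and 51.5, 38.8, 24.1, 54.5 and 58.8 after IL10/2-Trikine (45.5 ± 14.1), with no overlap of the last group with the others. Themis was 176 ± 74.2 CPM in PBS, with mice from 77.2 to 266, 238 ± 37.3 after mono-IL10 and 48.8 ± 28.5 after IL10/2-Trikine, where the highest mouse, at 88.0, was above the lowest PBS mouse. Cd5 was 92.4 ± 39.2, 76.3 ± 15.95 and 22.04 ± 12.6 CPM, and Cd6 was 84.9 ± 21.9, 102 ± 16.6 and 26.6 ± 14.9 CPM. Of Cd6 the IL10/2-Trikine mice, at 8.05 to 41.4 CPM, did not overlap the PBS mice, at 57.3 to 117.

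In the tests of mono-IL10 against PBS, 1 of the 10 members passed in T and NK cells, where all 10 passed the filter on low counts and 1.11% of the 4595 genes tested were called. That gene was Cd3g, with a log2 difference of 0.65 (SE 0.15, adjusted p = 0.0250 by edgeR's quasi-likelihood test over all genes). The other 9 did not pass, and 5 members had an unadjusted p below 0.05, as did 14.8% of all genes tested. The interval for Cd5 ran from -0.69 to 0.26 on the log2 scale and that for Cd247 from -0.03 to 0.73, so changes of that size remain possible. That for Lck ran from 0.03 to 0.58 and left out 0, but Lck did not pass after adjustment. The median log2 difference of the members was 0.33, against -0.01 over all genes tested. Cd3g lost its call in T and NK cells when PBS mouse 2, 3 or 5 or mono-IL10 mouse 1 or 3 was left out (adjusted p from 0.0514 to 0.0743), and also without the Cycling_T cluster (adjusted p = 0.101). Over all alternatives its adjusted p ran from 1.7e-05, with no filter on low counts, to 0.101.

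In the same cells, 7 members were lower in IL10/2-Trikine than in PBS past the same threshold, where 9.42% of all genes tested were called. This contrast chose the members, so nothing is read from the count. The log2 differences were -1.30 for Cd3d, -1.12 for Cd3e, -1.21 for Cd3g, -1.51 for Lat, -1.70 for Themis, -1.92 for Cd5 and -1.42 for Cd6, against -0.10 for Cd247, 0.14 for Lck and 0.10 for Zap70. Against mono-IL10 the same 7 genes ran from -1.42 (Cd3e) to -2.14 (Themis), beside -0.45 for Cd247, -0.17 for Lck and -0.18 for Zap70, and 8.86% of all genes were called. No member lay between -0.10 and -1.12 against PBS. Both of these comparisons, and that of mono-IL10 with PBS, share mice. In summed cells, fewer cells of a type and less RNA per cell cannot be told apart, and the next values separate them as far as the annotation allows.

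The T cell share differed between the groups. T cells made up 60.9% to 78.3% of the annotated cells of a PBS mouse (69.4% ± 6.503, n = 5), 62.8% to 74.4% in mono-IL10 (68.1% ± 4.70) and 35.4% to 59.7% in IL10/2-Trikine (44.6% ± 9.76). Of the T cells of a mouse, 5.93% ± 2.84 were NK-like Cycling_T cells in PBS, 4.45% ± 1.52 after mono-IL10 and 35.9% ± 5.96 after IL10/2-Trikine. The naive clusters were 14.6% ± 6.45, 21.6% ± 7.47 and 0.448% ± 0.668 of the cells.

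**Figure D3:**
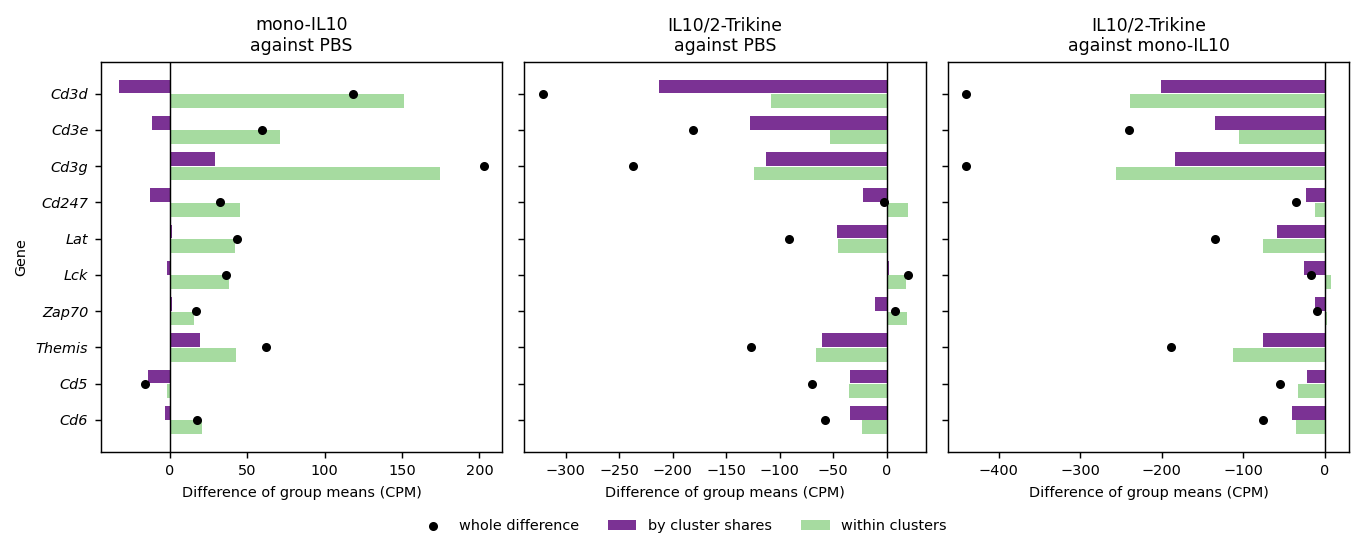
Difference in the mean level of each gene in T and NK cells, in CPM, split into the part given by the shares of the clusters and the part given by levels within clusters. For Cd3d in IL10/2-Trikine against PBS the share part was -213 CPM and the within part -109 CPM.

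Each member's difference was then split over the 12 clusters into a part given by cluster shares and a part given by levels within clusters. For IL10/2-Trikine against PBS the shares gave -213 CPM of the difference in Cd3d and the levels within clusters -109, so shares made up 66.2%. The same percentage was 70.7% for Cd3e, 47.8% for Cd3g, 50.4% for Lat, 47.6% for Themis, 49.1% for Cd5 and 59.7% for Cd6. Against mono-IL10 it was lower for each of the 7, from 39.6% for Cd5 to 56.0% for Cd3e. For Cd3e against PBS the part within clusters, -53.0 CPM, was smaller than the spread between mice (67.6 CPM). Some IL10/2-Trikine levels in the split rest on few cells, with 1 in naive_CD4T, 2 in naive_CD8T, 1 in naive_T and 2 in ISG+CD8T. Themis had 0 UMIs in its naive_CD4T and naive_CD8T cells, against 446 and 360.5 CPM in PBS. How much of the part within clusters came from such clusters was not tested.

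The split depends on how finely cells are grouped. With Cycling_T divided into NK-like and other cells, the share part rose to between 58.0% (Cd5) and 84.6% (Cd3e) against PBS. Against mono-IL10 it rose to between 53.9% and 75.6%. That division counts UMIs of constant chains, and Trbc2 (r of 0.95) and Trac (0.91) followed the CD3 genes over clusters. A larger share part is thus partly built into the division, and nothing is read from the rise. With the clusters merged into NK cells and all others the share part was 28.7% to 49.4% and 21.5% to 33.4%. For Cd3g in mono-IL10 against PBS, levels within clusters gave 174 CPM and shares 28.7 CPM, or 14.2% of the difference, and with NK cells and all others as the only sets the share part was -38.96 CPM and the part within sets 242 CPM.

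**Figure D4:**
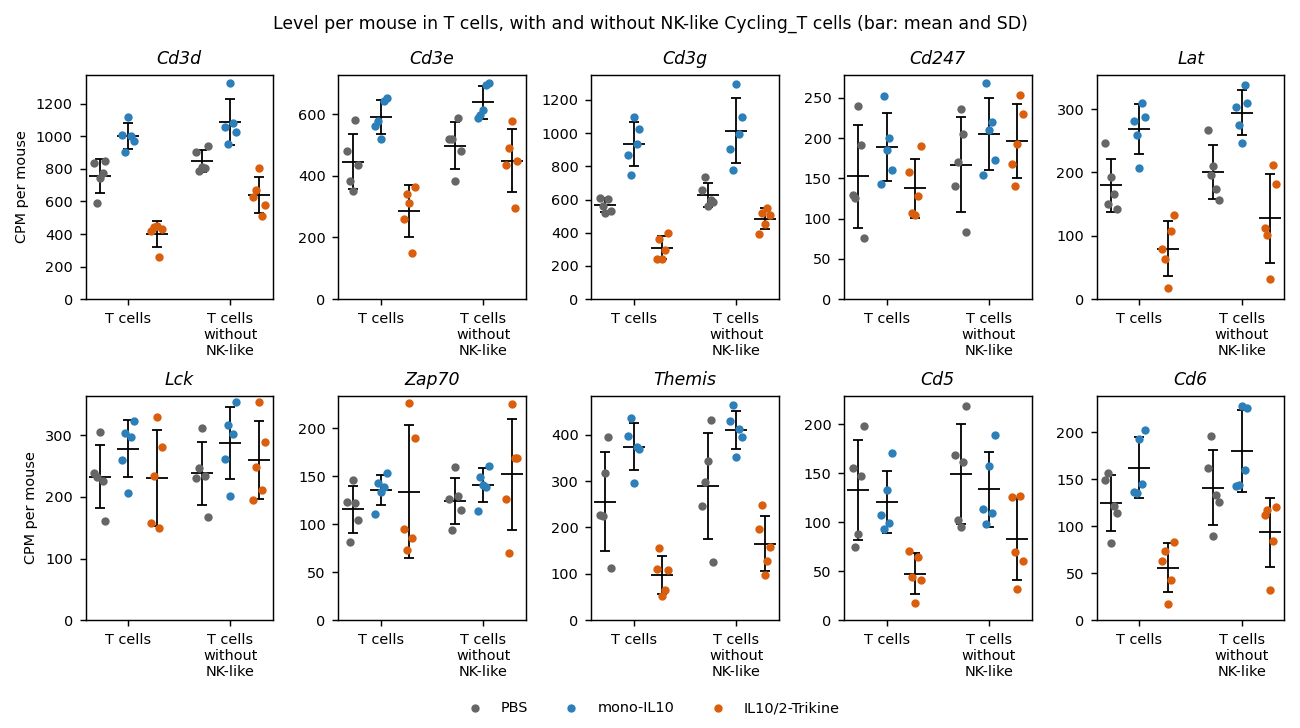
Level of the members in the T cells of each mouse, in CPM, with all T cells and without the NK-like Cycling_T cells, where each point is 1 mouse and the bar is the mean with its SD (n = 5 per group). Without the NK-like cells, Cd3d in IL10/2-Trikine moved from 400 ± 81.2 to 638 ± 111 CPM, and in PBS from 759 ± 105 to 850 ± 67.8 CPM.

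Within T cells, Cd3g was higher in mono-IL10 than in PBS. Its values were 609, 564, 522, 606 and 530 CPM in PBS (566 ± 41.0), 871, 747, 1095, 937 and 1024 after mono-IL10 (935 ± 135) and 245, 365, 243, 299 and 397 after IL10/2-Trikine (310 ± 69.7). The 3 groups did not overlap. The log2 difference of mono-IL10 from PBS was 0.74 (SE 0.13, interval 0.49 to 0.999, adjusted p = 0.00199 by edgeR), and 1 of 10 members passed where 1.47% of 3125 genes did. It was 0.72 without the NK-like Cycling_T cells (adjusted p = 0.00337) and 0.78 without the naive clusters. The call held with each of the 15 mice left out in turn, but not when the mouse sums were thinned to 1 total, and over all alternatives its adjusted p ran from 5.07e-07 to 0.109.

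In the same test Cd3d, Cd3e and Lat had higher means after mono-IL10 but did not pass, and no test compared them with Cd3g. Cd3e was 446 ± 89.7 CPM in the T cells of PBS and 590 ± 56.3 in those of mono-IL10. Cd3d was 835, 589, 744, 776 and 851 CPM in the T cells of the PBS mice and 1010, 902, 1117, 1005 and 974 in those of the mono-IL10 mice, which did not overlap, with a log2 difference of 0.44 that did not pass (adjusted p = 0.0592 by edgeR). Lat, at 180 ± 42.0 and 269 ± 39.2 CPM, had a log2 difference of 0.64 (adjusted p = 0.0641). The median over the members was 0.39, against -0.02 over all genes tested, and 5 members had an unadjusted p below 0.05, as did 14.1% of all genes. For Lck the difference was 0.29, with an interval from -0.03 to 0.62, and for Zap70 it was 0.23, from -0.20 to 0.66.

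In the T cells of IL10/2-Trikine mice, Cd3d was 419, 443, 452, 257 and 430 CPM, and each of these was below every PBS and mono-IL10 mouse. Against PBS, 7 members were past the threshold and lower (8.13% of all genes called), a count from which nothing is read, since the members were chosen for these differences. The log2 differences were -0.86 for Cd3d, -0.57 for Cd3e, -0.81 for Cd3g, -1.14 for Lat, -1.24 for Themis, -1.41 for Cd5 and -0.95 for Cd6. Against mono-IL10 the same 7 ran from -0.998 (Cd3e) to -1.78 (Lat) (12.2% of all genes called). Cd247 differed by -0.19 and -0.45, Lck by -0.02 and -0.32 and Zap70 by 0.10 and -0.13 in these comparisons.

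Removing the NK-like Cycling_T cells from all groups, by the same count of markers, moved the IL10/2-Trikine mice towards the PBS mice. Cd3d was then 850 ± 67.8 CPM in PBS, 1087 ± 141 after mono-IL10 and 638 ± 111 after IL10/2-Trikine, and Cd3e was 498 ± 75.4, 638 ± 53.8 and 449 ± 102.6. This contrast chose the members, so the values that follow describe it and carry no support. Against PBS, 0 of the 10 members were past the threshold (3.04% of 2535 genes called), and the log2 differences were -0.39 for Cd3d, -0.12 for Cd3e, -0.36 for Cd3g, -0.67 for Lat, -0.68 for Themis, -0.86 for Cd5 and -0.38 for Cd6. Against mono-IL10, 5 members were past it (6.82% of all genes called), namely Cd3d at -0.78, Cd3e at -0.51, Cd3g at -1.08, Lat at -1.28 and Themis at -1.17. Cd5, at -0.68, and Cd6, at -0.72, were not. The IL10/2-Trikine mice then held 10 to 43 T cells and 23630 to 128557 UMIs. With all T cells they held 17 to 65 cells and 46789 to 205362 UMIs. Fewer cells and UMIs make a call less likely, so a lost call is not read as a lost difference. The median over the members was -0.37 against PBS and -0.70 against mono-IL10. The cells were removed by a rule that also counts constant chains, which share cells with the CD3 genes.

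**Figure D5:**
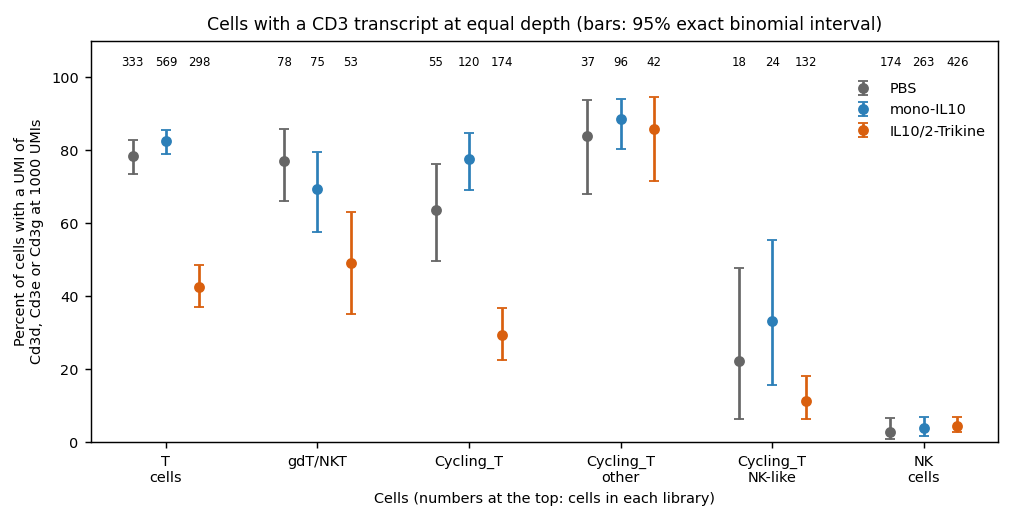
Percent of cells with at least 1 UMI of Cd3d, Cd3e or Cd3g after each cell was thinned to 1000 UMIs, by cell set and treatment, with exact 95% binomial intervals. In Cycling_T the share was 63.6% in PBS, 77.5% after mono-IL10 and 29.3% after IL10/2-Trikine.

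Per cell, detection of the CD3 genes was lower after IL10/2-Trikine in Cycling_T and in gdT/NKT. At 1000 UMIs, any CD3 gene was detected in 63.6% of PBS, 77.5% of mono-IL10 and 29.3% of IL10/2-Trikine Cycling_T cells (78.2%, 90.8% and 37.4% without thinning). Among Cycling_T cells that were not NK-like the shares were 83.8%, 88.5% and 85.7%, and among the NK-like ones 22.2%, 33.3% and 11.4%. In gdT/NKT they were 76.9%, 69.3% and 49.1%, and in NK cells 2.9%, 3.8% and 4.5%. Each group is 1 library, so these shares have no test between groups.

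Levels within single clusters were compared by library, with counting error only. In the Cycling_T cells that were not NK-like, Cd3d was 875 CPM in PBS (Poisson interval 733.5 to 1037), 1016 after mono-IL10 (939 to 1097) and 638 after IL10/2-Trikine (511 to 787). Lat in these cells was 346 (259 to 453), 370 (324 to 421) and 102.7 (56.2 to 172) CPM, and Themis was 568 (455 to 701), 544 (488 to 605) and 315.5 (228 to 425) CPM. The other members did not all go the same way. Cd3e was 568 (455 to 701), 664.5 (602.5 to 731) and 499 (387 to 632.5) CPM. Lck was 379, 267 and 323 CPM and Zap70 111, 108 and 117. Cd3g was 915, 978 and 638 CPM, Cd247 209, 174 and 125, Cd5 150, 128 and 58.7 and Cd6 157, 146 and 51.4. Of the IL10/2-Trikine mice, 1 had 10 or more of these cells, at 81.5 CPM of Lat (4 UMIs) and 469 of Themis (23 UMIs), and 4 mono-IL10 mice did, at 304 to 451 CPM of Lat and 434.5 to 583 of Themis. The mouse lay below the mono-IL10 mice for Lat and among them for Themis. Markers of NK cells and of T cells were also read in the same cells. The NK receptor gene Klre1 was 32.7 CPM in PBS, 7.91 after mono-IL10 and 146.7 after IL10/2-Trikine, Klrd1 was 228.7, 277 and 587 CPM, and Fcer1g was 65.3, 71.2 and 227 CPM. Eomes was 32.7, 11.1 and 95.4 CPM and Klrb1c 0, 0 and 36.7 CPM. Tyrobp, at 39.2, 68.0 and 80.7 CPM, had overlapping intervals, and Ncr1 had 0, 0 and 1 UMIs. Cd8a was 333, 650 and 220.1 CPM. Trac, at 686, 702.5 and 616 CPM, had overlapping intervals. Their part in the differences of Cd3d, Lat and Themis was not tested. The 132 NK-like cells of IL10/2-Trikine held 24 UMIs of Cd3d (51.6 CPM) and 0 of Themis and Cd5, which allows up to 7.94 CPM of each by the exact interval.

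In gdT/NKT, Cd3d was 713 CPM in PBS (608 to 830), 668 after mono-IL10 (576 to 771) and 323 after IL10/2-Trikine (230 to 441.5). Only 1 IL10/2-Trikine mouse had 10 or more such cells, and its level was 565.5 CPM (16 UMIs), against 778 and 614 in the 2 PBS mice and 679 and 722 in the 2 mono-IL10 mice that did. By library in gdT/NKT, Lat was 77.3, 79.0 and 99.4 CPM, Lck 275, 280 and 298 and Zap70 94.4, 108 and 116. Cd3e was 476.5, 334 and 315 CPM there, Cd3g 502, 474 and 265 and Cd247 112, 169 and 58.0. Themis, Cd5 and Cd6 had few UMIs there. In act_CD4T, Themis was 588 CPM in PBS (485 to 707.5), 481 after mono-IL10 (419 to 550) and 126 after IL10/2-Trikine (57.4 to 238, 9 UMIs), and no IL10/2-Trikine mouse had 10 such cells. The members did not move as 1 in this cluster. In the same order of groups, Cd3g was 870, 1309 and 530 CPM and Lat 219, 233 and 97.6 CPM. Cd3e was 505, 727.5 and 502 CPM, and Lck was 239.5, 248.5 and 265 CPM. In Treg, Cd3d was 1086 (914 to 1282), 1335 (1155 to 1537) and 828.6 (615 to 1092) CPM. Themis in Treg was 194 (125.5 to 286), 123 (73.1 to 195) and 215 (115 to 368) CPM. Of the kinases in Treg, Zap70 was 171 (107 to 258.5), 157.5 (99.9 to 236) and 0 CPM (0 UMIs, up to 61.1). Lck was 303 (215 to 414), 205.5 (139 to 293) and 149 (68.2 to 283) CPM there. No IL10/2-Trikine mouse had 10 Treg cells. The NK genes outnumbered the constant chains in 3 of 56 PBS, 4 of 88 mono-IL10 and 7 of 28 IL10/2-Trikine act_CD4T cells (5.36%, 4.55% and 25%) and in 5 of 51, 8 of 52 and 5 of 24 Treg cells (9.80%, 15.4% and 20.8%). The part of these cells in the differences was not tested.

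Cells without a mouse entered none of the per-mouse values, and in IL10/2-Trikine they were not like the rest. Its 117 T cells without a mouse held 168 CPM of Cd3d, 95.3 of Cd3e and 118 of Cd3g, against 420, 309 and 327 CPM in its 181 T cells with a mouse. NK-like Cycling_T cells were 59.8% of the first and 34.3% of the second.

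In NK cells, 2 of the 10 members, Lck and Zap70, passed the filter on low counts. Lck was 118, 156, 198, 148 and 141 CPM in PBS (152 ± 29.1, n = 5), 216, 253, 226 and 155 after mono-IL10 (212.5 ± 41.5, n = 4) and 276, 249, 255, 180 and 216 after IL10/2-Trikine (235 ± 37.6, n = 5). Most treated mice were above the PBS mice, but the groups overlapped. The log2 difference was 0.48 for mono-IL10 against PBS (interval 0.09 to 0.87, adjusted p = 0.364 by edgeR) and 0.56 for IL10/2-Trikine against PBS (interval 0.16 to 0.97). Zap70 was 65.4 ± 26.4, 96.7 ± 7.802 and 89.1 ± 36.1 CPM, with a log2 difference of 0.54 for mono-IL10 (adjusted p = 0.508).

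The calls in NK cells were 0 of 2 members in each comparison, where 0.297%, 4.63% and 2.51% of 2355 genes were called in mono-IL10 against PBS, IL10/2-Trikine against PBS and IL10/2-Trikine against mono-IL10. At an unadjusted p below 0.05 the edgeR counts were 1, 1 and 0 of 2, beside 11.6%, 18.1% and 16% of all genes. Cd247, which did not pass the filter, was 33.5 ± 22.4 CPM in PBS, 77.5 ± 21.8 after mono-IL10 and 93.6 ± 42.0 after IL10/2-Trikine. The PBS mice had only 0, 3, 3, 5 and 3 UMIs of it. With all cells of the NK cluster summed by library, Cd247 was 54.6 CPM in PBS (Poisson interval 37.8 to 76.4). It was 72.6 (59.0 to 88.4) after mono-IL10 and 83.7 (66.9 to 103.5) after IL10/2-Trikine, with overlapping intervals. Cd5 was at 0 in the NK cells of all 14 mice.

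Beyond the members, 63 other genes of the pathway were listed by role, and 52 of them were tested in T and NK cells. In mono-IL10 against PBS, where 1.11% of all genes were called, 3 were higher and 0 lower: Cd8a (log2 difference 1.40, adjusted p = 0.00299 by edgeR) and Cd8b1 (1.35, adjusted p = 0.000548), the 2 chains of the CD8 co-receptor, and the adaptor Sla2 (0.95, adjusted p = 0.0454). In IL10/2-Trikine against PBS, where 9.42% of all genes were called, 0 were higher and 10 lower, led by Cd8b1 (-1.62), Cd8a (-1.51), the receptor alpha constant chain Trac (-1.17) and the adaptor Grap2 (-1.08). Against mono-IL10, where 8.86% were called, 0 were higher and 13 lower, led by Cd8b1 (-2.97), Cd8a (-2.91), the diacylglycerol kinase Dgka (-1.52) and Ubash3a (-1.41), which restrains receptor signaling. By role, 4 of the 5 genes Cd4, Cd8a, Cd8b1, Cd2 and Cd28 were lower in IL10/2-Trikine than in PBS. The count was 2 of 4 receptor chains, 1 of 8 kinases and phosphatases and 2 of 13 adaptors. It was 0 of 8 effectors, 1 of 7 brakes and 0 of 7 nuclear targets. The naive_CD8T cluster held 38 of 516 annotated cells in PBS, 160 of 843 in mono-IL10 and 2 of 725 in IL10/2-Trikine. The part of this cluster in the differences of Cd8a and Cd8b1 was not tested.

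In T cells alone 44 of the listed pathway genes were tested, and the naive_CD8T counts above apply here too. In mono-IL10 against PBS, Cd8a (1.46), Cd8b1 (1.41) and the receptor beta constant chain Trbc1 (0.90, adjusted p = 0.0398 by edgeR) were higher and 0 were lower, where 1.47% of all genes were called. Without the NK-like Cycling_T cells, where 1.34% of all genes were called, Cd8a, Cd8b1 and Sla2 (1.44, adjusted p = 0.0483) passed and Trbc1 did not. In IL10/2-Trikine 6 of the 44 were lower than in PBS, where 8.13% of all genes were called, led by Cd8b1 (-1.22), Grap2 (-1.06), the adaptor Fyb (-0.79) and the ubiquitin ligase Cblb (-0.63), and 13 were lower than in mono-IL10, where 12.2% were called. Without the NK-like Cycling_T cells, where 3.04% of all genes were called against PBS and 6.82% against mono-IL10, Fyb alone was lower than in PBS (-0.83, adjusted p = 0.0104 by edgeR), and Cd8b1, Cd8a, Lax1, Dgka and Ptpn22 were lower than in mono-IL10. In NK cells 29 were tested and 0 passed in any of the 3 comparisons by edgeR, with 2, 4 and 0 at an unadjusted p below 0.05, beside 11.6%, 18.1% and 16% of all genes.

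Of the adaptors that signal behind NK receptors, 5 were listed and 4 tested in T cells. In IL10/2-Trikine 1 was higher than in PBS and 0 lower (8.13% of all genes called), and 2 were higher and 1 lower than in mono-IL10 (12.2% of all genes called). Tyrobp was 429 ± 110, 288.5 ± 44.1 and 922 ± 208 CPM in the T cells of PBS, mono-IL10 and IL10/2-Trikine mice, and its log2 difference was 1.11 for IL10/2-Trikine against PBS (adjusted p = 0.000222 by edgeR) and 1.64 against mono-IL10 (adjusted p = 8.58e-07). Fcer1g was 680 ± 142, 543 ± 272 and 1031 ± 179 CPM and rose by 0.97 against mono-IL10 (adjusted p = 0.0048), but its 0.61 against PBS did not pass (adjusted p = 0.0920). Hcst, which pairs with NKG2D, fell by 0.86 on the log2 scale against mono-IL10 (adjusted p = 0.000108). Tyrobp and Fcer1g also set which Cycling_T cells were called NK-like, and Tyrobp was 1463 CPM in the NK-like and 80.7 CPM in the other Cycling_T cells of IL10/2-Trikine. Without the NK-like cells, where 3.04% of all genes were called against PBS, the difference of Tyrobp from PBS was 0.78 and did not pass (adjusted p = 0.155 by edgeR), and that of Fcer1g was 0.39 (adjusted p = 0.354). Against mono-IL10, where 6.82% of all genes were called, Tyrobp was 1.52 (adjusted p = 0.0016 by edgeR), Fcer1g 0.85 (adjusted p = 0.0139) and Hcst -0.83 (adjusted p = 0.00165). Because Tyrobp and Fcer1g chose the cells removed, their values without these cells are a description.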

How the data were processed

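The authors made the deposited matrices with Cell Ranger on GRCm39. They hold raw, unscaled UMI counts of each gene in each barcode. The deposited cell table gives the mouse and cluster of T and NK cells that passed at least 1000 genes and at most 10% mitochondrial UMIs in Seurat 5.1.0. The authors used DESeq2 1.46.0 on summed counts. That table also holds 7858 cells of a group without a sample here, which were not used. No further doublet removal was made.

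For each mouse, counts were added up over its T and NK cells, its T cells and its NK cells, for mice with at least 10 cells. Levels are CPM, the UMIs of a gene per 1000000 UMIs of the summed cells, without TMM scaling. Tests used edgeR 4.0.16 (R 4.3.3; quasi-likelihood, TMM, filterByExpr, 1 fit over the 3 groups), with Benjamini-Hochberg adjustment over all genes tested and a threshold of 0.05. Intervals of log2 differences are 95% normal intervals. Poisson and binomial intervals are exact and cover counting error only. T and NK cells together summed to 124258 to 995020 UMIs per mouse, T cells to 46789 to 661363 and NK cells to 33913 to 333657. Mice of a group share a library, and nothing in the labels tells their cages or litters.

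The members, the pathway lists and the rule for NK-like cells were chosen with earlier results of these data known. All 10 members were named, with up to 4 called pathway genes per direction, ranked by log2 difference, and the 5 genes most like the CD3 genes. Genes of the NK adaptor list, and Lax1, Ptpn22 and the other calls left without NK-like cells, were named after their values were seen. In the split into shares and levels within clusters, the share part is the difference in cluster shares of UMIs times the mean of the levels of the 2 groups, and the rest is the part within clusters. Cells were thinned with a fixed seed. Promoter windows came from RefSeq on GRCm38.p6, and no coordinate was converted. Scripts were tested on simulated data. Alternatives were RLE normalization, no filter, DESeq2 1.42.0, sums thinned to 1 total, each mouse left out, and other cell sets (Python 3.11.15, numpy 2.4.6, pandas 2.3.3, scipy 1.17.1). Some marker genes of other cell types are not reported here.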

Additional observations from a re-analysis of the deposited data

Results flagged for a closer look

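Of 85 groups of mouse levels examined, 9 had 1 mouse far from the others by Dixon's test. Chance flags about 1 in 20 groups of normally spread values. That rate does not hold for counts near 0, since 1 mouse with UMIs beside mice at 0 is always flagged. In T and NK cells, Cd3e was 429.2 CPM in mono-IL10 mouse 4, against 356.4 to 376.9 in the other mice of its group. In T cells, Cd3d was 256.5 CPM (12 UMIs) in IL10/2-Trikine mouse 4, against 418.5 to 451.5 in its group. The other 7 were in NK cells. PBS mouse 5 had 20.13 CPM of Cd3d (1 UMI), 60.39 of Cd3e (3 UMIs) and 100.7 of Cd3g (5 UMIs), where the other PBS mice were at 0 to 28.22 CPM of Cd3g. Mono-IL10 mouse 2 had 109.9 CPM of Cd247, against 62.22 to 68.93 in its group, 19.11 of Themis (4 UMIs) and 4.778 of Cd6 (1 UMI). IL10/2-Trikine mouse 2 had 5.526 CPM of Cd6 (1 UMI).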

How the results depend on the processing

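Each treatment was 1 library, so no value separates them, and depth limits genes with few UMIs per mouse. In the following, all counts are of genes past an adjusted p of 0.05. The share of all genes called is given above for the main setting and without NK-like cells, not for the other alternatives. A changed count under those is therefore not read as a stronger or weaker result about the genes counted. For the members, mono-IL10 against PBS gave 1 call in T and NK cells, 2 with no filter, 0 with thinned sums, 0 without the Cycling_T cluster and 0 to 2 with 1 mouse left out (0 without PBS mouse 2). Cd3g itself also lost its call there without PBS mouse 3 or 5 or mono-IL10 mouse 1 or 3. In T cells mono-IL10 against PBS gave 1 call, 5 with no filter, 3 by DESeq2, 2 with Th17/ILCs added, 0 with thinned sums and 1 to 3 with 1 mouse left out. For IL10/2-Trikine against PBS in T cells, the 7 calls became 4 with thinned sums, 0 without NK-like cells, 0 without Cycling_T, where only 3 IL10/2-Trikine mice remained, and 3 to 7 with 1 mouse left out (3 without IL10/2-Trikine mouse 2). Cd6 turned to 0.13 on the log2 scale without Cycling_T. Against mono-IL10, the 7 calls became 4 without Cycling_T. In T and NK cells both IL10/2-Trikine comparisons kept a count of 7 with each mouse left out. With all mice, 9.42% of all genes were called there against PBS and 8.86% against mono-IL10. The members were chosen for the IL10/2-Trikine differences, so nothing is read from their counts in these comparisons.

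For the pathway genes, IL10/2-Trikine against PBS in T cells had 6 calls, 10 with no filter, 1 without NK-like cells, 0 without Cycling_T, 1 without the naive clusters and 2 to 7 with 1 mouse left out (3 without PBS mouse 3, 2 without IL10/2-Trikine mouse 2, 3 without IL10/2-Trikine mouse 3). Against mono-IL10 the 13 calls in T cells became 4 with thinned sums, 5 without NK-like cells, 4 without Cycling_T, 5 without the naive clusters and 8 to 15 with 1 mouse left out (8 without IL10/2-Trikine mouse 1), and the 13 in T and NK cells became 6 with thinned sums and 9 to 14 with 1 mouse left out. The share of Cycling_T cells with any CD3 UMI was 78.2% in PBS, 90.8% after mono-IL10 and 37.4% after IL10/2-Trikine at full depth, and 87.5% in mono-IL10 at 2000 UMIs. Thinning leaves fewer counts and the smaller cell sets fewer cells, and the cause of the other changes was not tested. The Th17/ILCs and naive alternatives, that of Cycling_T in T and NK cells and the divided Cycling_T were chosen after seeing the data. Mice of the 3 groups share hashtag numbers 1 to 5, which no label ties to a litter or batch, and in T and NK cells 0 of 15 same-numbered pairs deviated from their group means with a correlation over 0.1. With the number as a replicate block, also chosen after seeing the data, the members gave 0 calls in mono-IL10 against PBS in T and NK cells (Cd3g adjusted p = 0.0602 by edgeR), and the other counts stayed within 1.5 times. In T cells 2 of 15 mice, and in T and NK cells 0, correlated best with their own number.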
